A study of Mus musculus with 4 samples.

Results

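The genes described here are 9 early neural genes, Sox1, Pax6, Nes, Tubb3, Sox11, Fabp7, Ncam1, Hes5 and Map2, in mouse embryonic stem (ES) cells with and without the transcription factor Klf5. They were chosen by gene name: every row of the deposited table whose platform symbol is one of the 9 was taken, which gave 31 probe sets of 45101 in all (9 of 18194 named genes). The table has 4 Affymetrix arrays, 2 of wild-type (WT) clones and 2 of Klf5 knockout (KO) clones, each array from total RNA of 1 clone. All 4 cultures had the same medium with 15% fetal bovine serum and LIF, a cytokine that holds them in the undifferentiated state. The sources used here do not give the strain, the deleted part of Klf5, the passage or the use of feeder cells. The labels call the samples of a group separate clones, and p-values measure only the spread between these arrays.

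Neural fate begins when cells of the embryo's ectoderm switch on transcription factors such as Sox1 and Pax6, and it is held in dividing progenitors by Notch signalling, which acts through Hes factors. Progenitors then build their own cytoskeleton and lipid carriers, with nestin (Nes) and Fabp7, and newborn neurons turn on Sox11, Tubb3, Map2 and more Ncam1. ES cells that leave pluripotency without other signals take this path readily, which is why these genes are read as signs of early neural differentiation in ES cultures.

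Of the 9 genes, 5 had a probe set above background on all 4 arrays. Of the 18 tested probe sets of the 9 genes, 2 were called different between the genotypes (11.1%, beside 3.69% of all tested probe sets). One of the 3 Nes probe sets was at least 1.55-fold higher in KO clones and 1 of the 6 Sox11 probe sets 1.84-fold lower, and no other probe set of the 9 genes passed the test. Neither call was firm. Both held with the arrays centred on their medians, but that fit gave every probe set 1 shared variance in place of its own spread. The Nes probe set entered the test only through its KO arrays and did not pass without the filter on low values (limma, adjusted p = 0.10), and its call held in 4 of 11 alternative settings. The Sox11 call held in 5 of 12 and was lost with any 1 array left out (adjusted p = 0.070 to 0.23). Sox1, Fabp7 and Hes5 did not read above background on any array. Klf5 itself separated the arrays as labelled: its probe set 1451021_a_at had intensities of 2399 and 1782 on the WT arrays (clone 1, then clone 2, the order kept throughout) and of 34.8 and 49.9 on the KO arrays. Another, 1451739_at, read 102 and 88.6 in WT against 82.6 and 61.03 in KO and did not pass (log2 fold change -0.35; limma, adjusted p = 0.36), and the third was under background on every array. Which of them lie in the deleted part of the gene is not given.

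Intensities are given after quantile normalization, which gives the arrays one common distribution, because the trimmed mean of the deposited values ran from 137 to 226. No detection calls were used. A probe set was called above background on an array when it read over the 95th percentile of 148 probe sets of gene families of sensory neurons, hair and mucosa (olfactory, vomeronasal and taste receptors, trace amine receptors, hair keratin-associated proteins and beta-defensins), which was 15.5 and 20.1 on the WT arrays and 16.02 and 18.3 on the KO arrays. The ES cell identity of the arrays was read from 14 markers of pluripotent cells, all of them above background on all 4 arrays. By limma 0 of the 14 passed in either direction, beside 4.28% of all tested genes. Their log2 fold changes ran from -0.82 to 0.96, so this count of 0 does not show that they were unchanged.

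Of the 31 probe sets, 12 were above background on all 4 arrays (38.7%, beside 47.5% of all 45037 probe sets without controls), 7 on some and 12 on none. Those 12 covered 5 of the 9 genes: Tubb3 with its single probe set, Sox11 with all 6, Ncam1 with 3 of 7, Pax6 with 1 of 5 and Nes with 1 of 3. Map2 had 2 of 4 probe sets above background on some arrays. With a level at the 99th percentile of the same families, only the probe set of Tubb3, 1 of Sox11 (1436790_a_at) and 2 of Ncam1 (1426864_a_at and 1426865_a_at) remained above it on all 4 arrays.

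**Figure D1:**
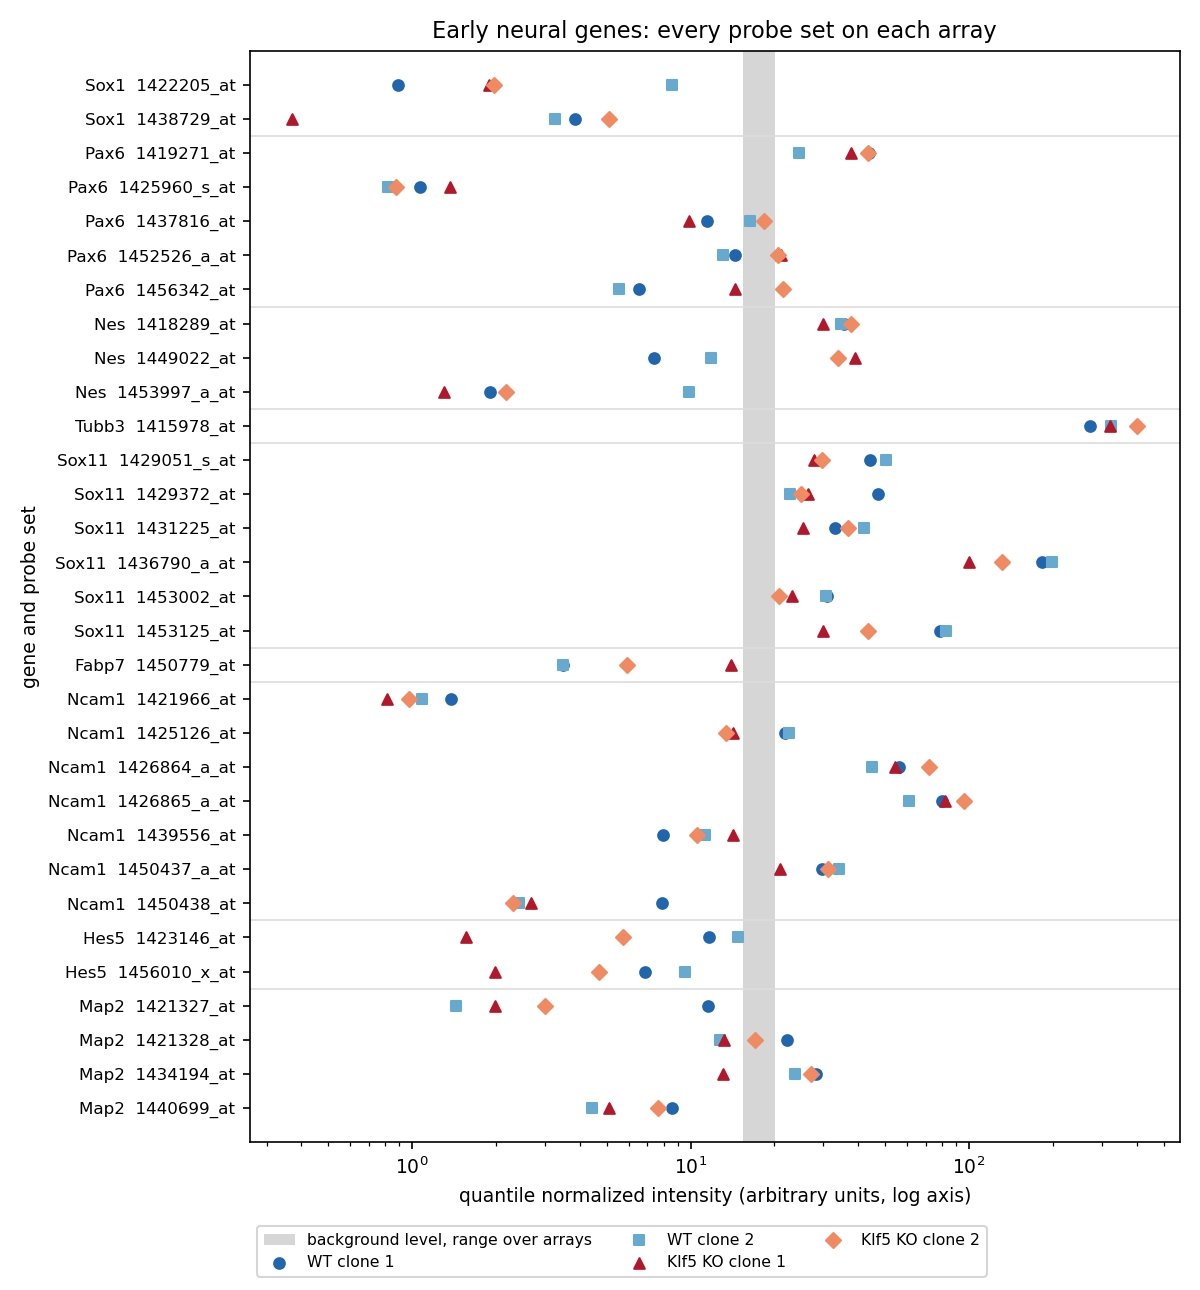
Quantile normalized intensity (horizontal log axis, arbitrary units) of all 31 probe sets of the 9 genes, with 1 point per array and the range of the background level over the arrays, 15.5 to 20.1, as a grey band. The Nes probe set 1449022_at has both WT clones left of the band and both KO clones right of it, the 6 Sox11 probe sets lie right of it on every array, and the probe sets of Sox1, Fabp7 and Hes5 lie left of their array's level on every array.

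The test compared KO with WT on log2(intensity + 16), a scale that understates changes of dim probe sets, with a limma model fitted over the 27022 probe sets whose mean over the arrays was at or above the 40th percentile (an intensity of about 13.05). Of the members' 31 probe sets, 18 passed this filter and 13 did not. A probe set was called at an adjusted p under 0.05 (Benjamini-Hochberg over all 27022), and 3.69% of all tested probe sets were called, 2.44% higher and 1.25% lower in KO clones. Higher calls were 66.2% of all calls, and 31.1% when the arrays were centred on their medians instead of quantile normalized. Of the 18 tested here 2 were called (11.1%), 1 in each direction, and the higher one was among the 18 only through its KO arrays, so the share is a description. At an unadjusted p under 0.05 there were 4 of 18 (22.2%), beside 20.4% of all tested probe sets. The KO mean was above the WT mean for 7 of the 18 and below it for 11, with a median log2 fold change of -0.14, beside -0.02 over all tested probe sets.

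Sox1 and Pax6 are the transcription factors of this group that mark the neural plate and its progenitors. Sox1 read 0.89, 8.55, 1.89 and 1.97 on WT clones 1 and 2 and KO clones 1 and 2 by the probe set 1422205_at. By 1438729_at it read 3.85, 3.25, 0.37 and 5.07. Neither Sox1 probe set reached background on any array, neither passed the filter, and the groups overlapped on both.

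Pax6, a paired-box and homeobox factor of the dorsal forebrain, the eye and the pancreas, had 5 probe sets. The one above background on all arrays (1419271_at) read 43.6 and 24.5 in WT against 37.6 and 43.4 in KO, with overlapping groups and a log2 fold change of 0.20 ± 0.22 (SE, n = 2 arrays per group; 95% confidence interval -0.31 to 0.71; limma, adjusted p = 0.66). The next, 1452526_a_at, read 14.5 and 13.1 in WT, under background, and 21.1 and 20.5 in KO, above it. Its groups did not overlap, with KO at least 1.09-fold higher, but it did not pass (log2 fold change 0.31, adjusted p = 0.37). Another, 1456342_at, failed the filter and read 6.53 and 5.52 in WT against 14.5 and 21.6 in KO, of which only KO clone 2 was above background. Without the filter its adjusted p was 0.22 by limma. The remaining Pax6 probe sets were 1437816_at, at 9.91 to 18.4 with overlapping groups, and 1425960_s_at, at 0.82 to 1.37.

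Hes5, a basic helix-loop-helix repressor that Notch signalling switches on in neural progenitors, had 2 probe sets, and both read under background on every array. The first (1423146_at) read 11.6 and 14.8 in WT against 1.57 and 5.73 in KO. The second (1456010_x_at, whose suffix marks probes that can match unrelated transcripts) read 6.87 and 9.57 in WT against 1.98 and 4.68 in KO. Both KO clones lay under both WT clones on each of them, but with both groups under background no fold is given. Without the filter, limma gave adjusted p = 0.25 and 0.44.

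Nestin, the intermediate filament protein encoded by Nes, marks neural progenitors and is also made by muscle precursors, endothelium and cultured mesenchymal cells. The probe set 1449022_at read 7.38 and 11.9 in WT against 39.1 and 33.8 in KO. Both WT values were under background and both KO values above it, so the groups did not overlap and the WT level is only a bound: KO was at least 1.55-fold higher. Both WT values were also under the filter's intensity of 13.05, so the probe set was tested only through the KO arrays, where it is high. With that selection, limma gave a log2 difference of 1.04 ± 0.19 (SE, n = 2 arrays per group; 95% confidence interval 0.61 to 1.47; adjusted p = 0.021), whose size depends on the pseudocount since the WT level is a bound. Without the filter the adjusted p was 0.10.

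The other Nes probe sets did not show this difference. The probe set 1418289_at, above background on every array, read 35.6 and 34.7 in WT against 29.9 and 37.6 in KO, with overlapping groups and a log2 fold change of -0.04 ± 0.18 (95% confidence interval -0.46 to 0.37; limma, adjusted p = 0.92). The difference between these probe sets of one gene was not tested, and where each lies in the transcript is not in the files. The last one, 1453997_a_at, read 1.30 to 9.91 and was under background on every array. Averaged over its 2 tested probe sets, Nes had a log2 fold change of 0.50 ± 0.16 (limma, adjusted p = 0.088).

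The call for 1449022_at was lost without WT clone 1 (adjusted p = 0.10), without KO clone 1 (0.15) and without KO clone 2 (0.073), and it held without WT clone 2 (0.042). It was also lost with a pseudocount of 1 or 64 and in the values as deposited. Values of the log2 fold change ran from 0.45 with a pseudocount of 64 to 1.85 with a pseudocount of 1. The genes whose values over the 4 arrays lay closest to this probe set (Euclidean distance of mean-centred log2 values) were Anxa8, an annexin (distance 0.069), Gadd45g, a stress and growth arrest gene (0.075), and Fbp2, a fructose bisphosphatase (0.082). With 4 arrays in 2 groups such likeness describes little more than the size of the difference between the groups.

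Fabp7, the brain fatty acid-binding protein of radial glia, had 1 probe set, under background on every array. It read 3.49 and 3.48 in WT against 14.0 and 5.91 in KO. Both KO clones lay above both WT clones, but the probe set did not pass the filter, and without the filter limma gave an adjusted p of 0.43.

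Sox11, a transcription factor of the SoxC group that acts in young neurons and in several embryonic tissues, was above background on every array by all 6 probe sets. The probe set 1453125_at read 78.4 and 82.7 in WT against 30.0 and 43.5 in KO. Both KO clones lay under both WT clones, and on the log2 scale it fell by 0.88 ± 0.20 (SE, n = 2 arrays per group; 95% confidence interval -1.33 to -0.44; limma, adjusted p = 0.046), a 1.84-fold difference. In bulk RNA, fewer cells that express a gene and less of its RNA per cell cannot be told apart.

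The other Sox11 probe sets did not pass, and all of them had a KO mean under the WT mean. The probe set 1436790_a_at read 183 and 199 in WT against 100.2 and 131 in KO, a log2 fold change of -0.66 ± 0.20 (95% confidence interval -1.11 to -0.22; limma, adjusted p = 0.11). The probe set 1429051_s_at read 44.3 and 50.5 in WT against 27.7 and 29.5 in KO (log2 fold change -0.51, adjusted p = 0.16). By 1453002_at the values were 30.9 and 30.7 against 23.2 and 20.8 (-0.30, adjusted p = 0.38). On these the groups did not overlap either, so that both KO clones lay under both WT clones on 4 of 6 Sox11 probe sets, beside 28.4% of all tested probe sets.

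The groups overlapped on the remaining Sox11 probe sets. WT clone 1 stood alone on 1429372_at, with 47.1 against 22.8, 26.3 and 24.9 in WT clone 2 and KO clones 1 and 2. On 1431225_at the WT clones read 33.1 and 42.1 and the KO clones 25.3 and 36.9. Probe sets of one gene share its RNA and are not replicates, and the mean over all 6 gave Sox11 a log2 fold change of -0.47 ± 0.16 (limma, adjusted p = 0.11).

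The call for 1453125_at was lost with any array left out, with an adjusted p of 0.070 when KO clone 2 was dropped and up to 0.23 when KO clone 1 was, with log2 fold changes from -1.08 to -0.72. It was also lost with a pseudocount of 1, without the filter and in the values as deposited. The probe set 1436790_a_at passed by limma with a pseudocount of 64 (adjusted p = 0.044). It also passed with median centring (limma, adjusted p = 0.024), where 1 variance was shared by all probe sets. Its direction held under every alternative. The genes closest to 1453125_at over the 4 arrays were Hdac4, a histone deacetylase (distance 0.038), Mov10, an RNA helicase (0.051), and Hirip3, named for its binding to the histone chaperone HIRA (0.054).

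The upstream sequences of the 2 genes with a called probe set are shown because Klf5 binds GC-rich and CACCC-type elements. They are the 250 bases before the RefSeq start site (GRCm38.p6), written 5′ to 3′ along the gene, with capitals at each match to CCNCNCCC, a form of the Kruppel-like factor element, on either strand. Nes lies at chr3:87970843-87971092 on the plus strand and Sox11 at chr12:27342719-27342968 on the minus strand.
Nes: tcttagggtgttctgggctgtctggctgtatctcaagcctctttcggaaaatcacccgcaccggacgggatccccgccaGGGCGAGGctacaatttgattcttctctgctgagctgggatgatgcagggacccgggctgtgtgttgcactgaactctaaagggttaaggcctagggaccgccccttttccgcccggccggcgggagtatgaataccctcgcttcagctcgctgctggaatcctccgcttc
Sox11: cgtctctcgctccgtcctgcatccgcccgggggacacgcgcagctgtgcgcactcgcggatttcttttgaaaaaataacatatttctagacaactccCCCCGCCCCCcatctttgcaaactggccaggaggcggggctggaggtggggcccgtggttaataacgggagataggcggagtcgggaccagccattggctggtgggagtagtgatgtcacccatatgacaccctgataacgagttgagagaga
The Nes sequence held 1 match, read on the opposite strand, and the Sox11 sequence 2 that overlap each other. For the motif CACCC, on either strand and outside those capitals, each sequence held 2 matches. Of 32851 RefSeq upstream sequences of the same length, 45.9% held CCNCNCCC and 52.0% held CACCC, so these matches are common. Among the other members, CCNCNCCC matched 3 times each in Tubb3 and Map2, 6 times in Sox1, 8 times in Fabp7, where most overlap in a run of G, 1 time in 1 of 2 starts of Pax6, and 0 times in Hes5. For Ncam1 no upstream sequence was available, so it was not searched.

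Tubb3, the beta-tubulin of neurons, had a single probe set (1415978_at), above background on every array. It read 272 and 323 in WT against 322 and 403 in KO. The groups overlapped, and the log2 fold change was 0.27 ± 0.20 (95% confidence interval -0.18 to 0.72; limma, adjusted p = 0.48). Its sign turned in the values as deposited (-0.04) and with median centring (-0.005).

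Map2, a microtubule-associated protein of dendrites, had 4 probe sets, none above background on all arrays. The probe set 1434194_at read 28.2 and 23.6 in WT against 13.1 and 27.1 in KO, where KO clone 1 alone lay under background (log2 fold change -0.24, 95% confidence interval -0.75 to 0.27). On 1421328_at only WT clone 1, at 22.2, was above background, and the other arrays read 12.7, 13.2 and 17.0 (log2 fold change -0.09). Neither passed by limma (adjusted p = 0.59 and 0.84). The probe sets 1421327_at and 1440699_at read 1.44 to 11.5 and 4.44 to 8.61.

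Ncam1, the neural cell adhesion molecule, is made by neurons and also by muscle and some mesenchymal cells. Its 3 probe sets above background on all arrays did not pass and differed in sign. The probe set 1426865_a_at read 80.0 and 60.9 in WT against 82.3 and 95.8 in KO (log2 fold change 0.29, 95% confidence interval -0.16 to 0.73; limma, adjusted p = 0.45). On this one both KO clones lay above both WT clones. By 1426864_a_at Ncam1 read 55.9 and 44.9 against 54.5 and 71.7, with overlapping groups (0.25, adjusted p = 0.52). By 1450437_a_at it read 29.7 and 34.1 against 20.9 and 31.2, again with overlap (-0.20, adjusted p = 0.62).

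The fourth tested Ncam1 probe set had a lower KO mean. With 1425126_at the WT clones read 21.9 and 22.5, above background, and the KO clones 14.2 and 13.4, under it, so KO was at least 1.15-fold lower, without passing (log2 fold change -0.36, adjusted p = 0.29). The other Ncam1 probe sets (1421966_at, 1439556_at and 1450438_at) were under background on every array, at 0.82 to 14.2. Averaged over the 4 tested probe sets, Ncam1 had a log2 fold change of -0.006 ± 0.17 (limma, adjusted p = 0.99).

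**Figure D2:**
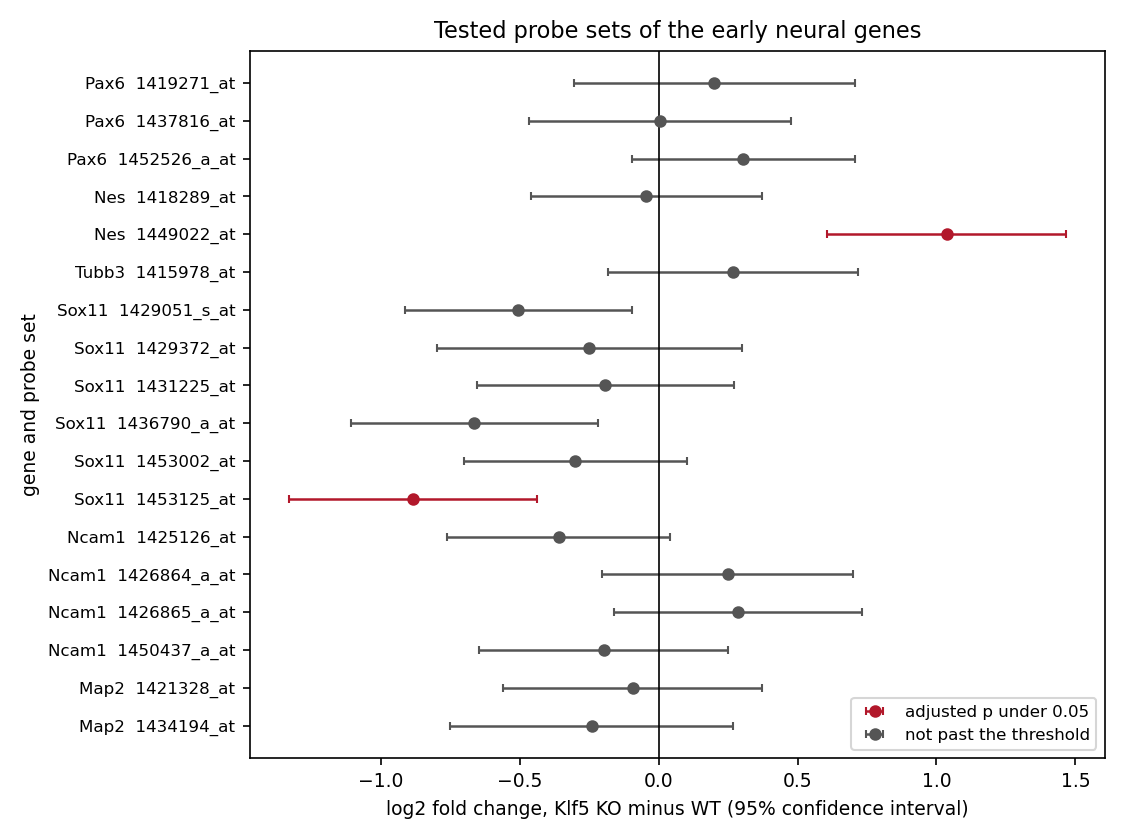
Log2 fold change of KO against WT (horizontal axis) for the 18 tested probe sets, with the 95% confidence interval of the limma fit as bars and n = 2 arrays per group. The interval lies above 0 for Nes 1449022_at (0.61 to 1.47) and under 0 for 3 Sox11 probe sets, of which 1453125_at passed the adjusted threshold, and all other intervals include 0.

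Over the tested probe sets of all members, both KO clones lay above both WT clones on 3 of 18 and below them on 5 of 18, beside 23.9% and 28.4% of all tested probe sets. Of those 5, 4 are probe sets of Sox11. Without the filter 0 of the 13 untested probe sets passed by limma (lowest adjusted p = 0.22). In that fit only 190 of all 45037 probe sets passed, so a count of 0 says little. Of the 13, 2 had an unadjusted p under 0.05 by limma, Hes5 1423146_at and Pax6 1456342_at. The share of all probe sets at that level without the filter is not given here.

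Other genes of the neural programme were read from 8 lists arranged by role (138 genes, 99 of them tested, each by its brightest probe set that passed the filter). Of the 99 tested, 5 rose, 2 fell and the rest did not pass by limma (5 and 6 with median centring, 7 and 5 with a pseudocount of 64), beside 4.28% of all 13023 tested genes that were called (2.94% higher and 1.34% lower). Their median log2 fold change was -0.01, beside -0.02 for all genes.

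The patterning factors of the neural plate and brain held most of these calls, with 3 rises and 1 fall among 13 tested genes (median 0.30). Otx2, a homeobox gene of the early epiblast and forebrain, read 207 and 155 in WT against 823 and 713 in KO (log2 rise 2.00 ± 0.20, adjusted p = 0.0013). Irx3, an Iroquois homeobox factor, read 29.9 and 32.1 against 108 and 123 (1.48 ± 0.18, adjusted p = 0.0030). Hesx1, a homeobox factor of the anterior embryo and pituitary, read 54.0 and 53.3 against 133 and 123 (1.05 ± 0.18, adjusted p = 0.016). Gbx2, a homeobox factor of the hindbrain border that ES cells also express, fell from 236 and 186 to 99.3 and 104 (adjusted p = 0.032). Otx2 and Irx3 passed under all 12 alternatives, while Hesx1 and Gbx2 were lost with any array left out (highest adjusted p = 0.11 and 0.17). Of the 26 listed patterning genes on the array, 9 were under background on every array by all their probe sets, among them Rax, Zic1, Nkx2-2, Nkx6-1 and Olig2.

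Stmn2, a stathmin that binds tubulin in growing axons, was the 1 gene of 20 tested in the neuronal cytoskeleton list that passed, and it fell. It read 3507 and 2968 in WT clones and 761 and 736 in KO clones, 4.24-fold lower (log2 change -2.08 ± 0.19, adjusted p = 0.00063), and its other probe set passed as well. The doublecortin gene Dcx of migrating neurons was under background on every array.

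No gene passed in the lists of Notch pathway genes (0 of 22), proneural factors and their Id inhibitors (0 of 10) and other neuronal genes (0 of 11). The same held for SoxB and SoxC factors other than the members (0 of 5). The medians of these lists, in the same order, were -0.17, -0.03, -0.22 and -0.25. With 4.28% of all tested genes called, counts of 0 in lists this short say little about the lists. Rbpj, the DNA-binding effector of Notch, had a log2 fold change of -0.28 (95% confidence interval -0.70 to 0.14). Its other tested probe sets had -0.36 and -0.31 and did not pass (limma, adjusted p = 0.30 and 0.37). Id3, an inhibitor of proneural factors, had 0.02 (-0.39 to 0.44) and Sox2, the SoxB factor of both pluripotent and neural cells, -0.25 (-0.66 to 0.15). Elavl2, a neuronal RNA-binding protein, had 0.09 (-0.31 to 0.50) by its brightest probe set. Its other tested probe sets differed in sign (0.43, -0.23 and -0.32) and did not pass (limma, adjusted p = 0.28, 0.50 and 0.45). Sox4, the SoxC paralog of Sox11, named after its values were seen, read 1044 and 916 in WT against 1284 and 1532 in KO, opposite in sign to Sox11 and not past the threshold (0.51, adjusted p = 0.18).

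Sox9, a factor of glia, neural crest and cartilage, was the 1 of 10 tested radial glia and glial genes that passed. It read 3.75 and 8.59 in WT, under background and under the filter, and 35.5 and 22.4 in KO, at least 1.32-fold higher, so that it was tested only through the KO arrays (limma, adjusted p = 0.038). It did not pass without the filter (0.15), with a pseudocount of 1 (0.11) or 64 (0.09) or in the values as deposited (0.23). Among 8 tested neural adhesion genes, Cdh2 (N-cadherin) rose, from 178 and 133 to 328 and 396 (1.15 ± 0.21, adjusted p = 0.020), and its other probe set did not pass (0.54, adjusted p = 0.18). Sox9 was lost in each of the 3 leave-outs in which it was tested (highest adjusted p = 0.15), and Cdh2 kept its call only without WT clone 1 (up to adjusted p = 0.10 in the others).

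Nes, Ncam1, Cdh2 and Sox9 are not restricted to neural cells, and markers of fibroblasts and feeder cells moved in the same arrays. Of 23 tested fibroblast markers 19 rose, 0 fell and 4 did not pass (median log2 fold change 1.69). Of all tested genes, 2.94% were called higher. Dcn and Col6a1 had both WT values under the filter's intensity and were tested only through the KO arrays. The count and the median are therefore a description. S100a4 rose by 5.64 ± 0.23 and Col1a2, a collagen I chain, by 3.87 ± 0.18 (limma, adjusted p = 3.3e-05 each). The summed intensity of the tested fibroblast markers was 6910 and 4857 in WT against 19183 and 19631 in KO. Of the 25 on the array, 18 were above background on all 4 arrays, and Lum and Fap were under it on every array. Whether these cells or transcripts have a part in the Nes, Cdh2 and Sox9 results was not tested.

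Markers of other cell types that carry Nes or Ncam1 were read from short lists of 3 to 7 tested genes. With 4.28% of all tested genes called, the counts in lists this short say little about those cell types. Of 6 tested skeletal muscle genes 0 passed (median -0.14, with Ttn at 80.0 to 134), and Myf5, Myog and Myf6 were under background on every array. Of 3 tested endothelial genes 0 passed (median -0.01, with Pecam1 at 215 and 269 against 216 and 263), and Cdh5, Tie1 and Emcn were under background on every array. Of 7 tested neural crest genes 1 rose, Snai2, a zinc finger factor also made by fibroblasts (21.9 and 22.4 against 54.8 and 48.7, adjusted p = 0.041), and this call was lost with any array left out (highest adjusted p = 0.20). Its other probe set rose as well (1.43, adjusted p = 0.0048), by probes that can match unrelated transcripts. Of 14 ES cell markers 0 passed (median -0.15), with the brightest, Dppa5a, at 10276 and 10142 against 10124 and 10837. Tfcp2l1 had the lowest log2 fold change (-0.82; limma, adjusted p = 0.071) and Dppa3 the highest (0.96, adjusted p = 0.11). Both KO clones lay below both WT clones for 6 of the 14 and above them for 2, beside 29.7% and 25.9% of all tested genes.

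**Figure D3:**
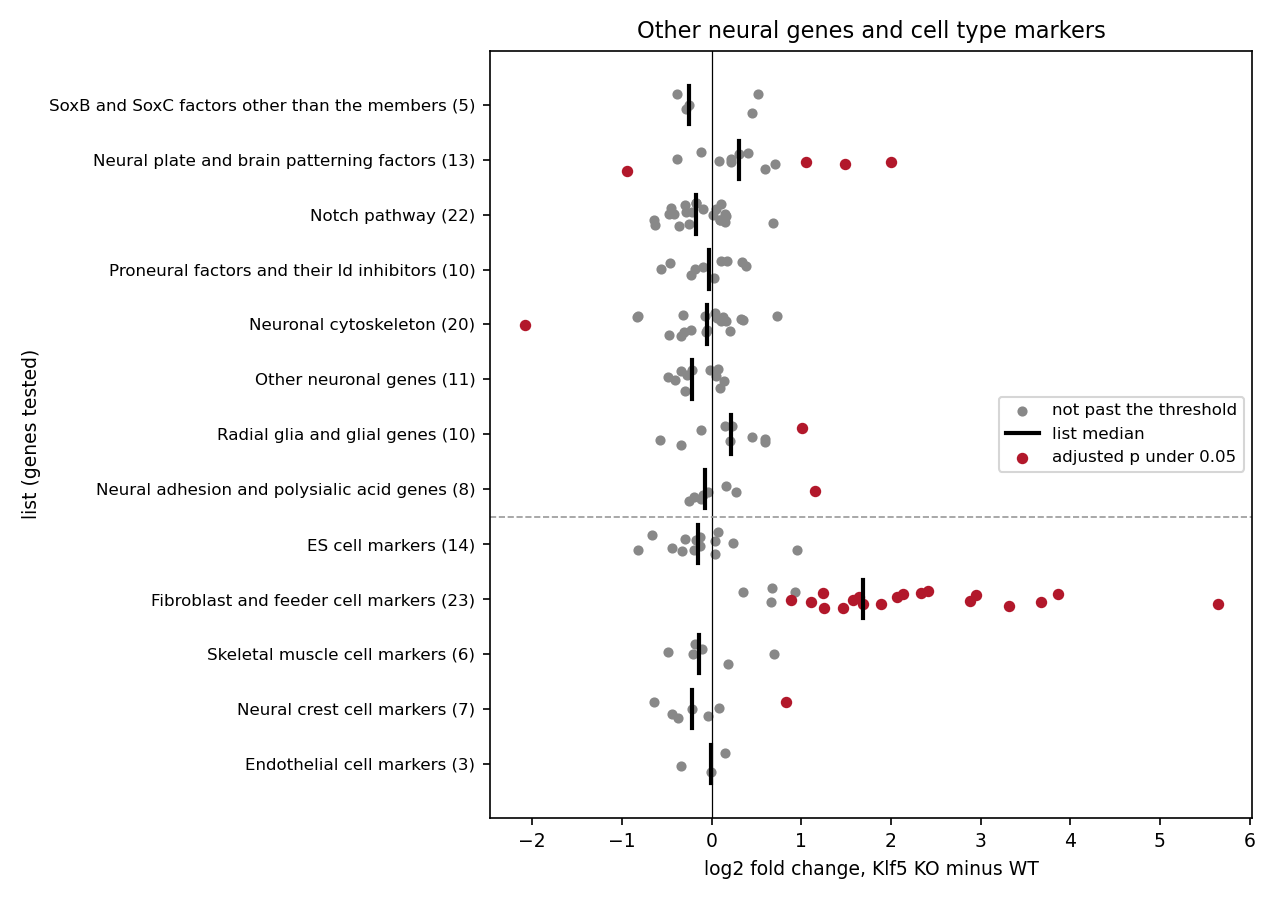
Log2 fold change of KO against WT (horizontal axis) for the tested genes of 8 neural lists (above the dashed line) and 5 cell type marker lists (under it), 1 point per gene, with the list median as a black bar and the number of genes tested in parentheses. Called genes (red) are 5 rises and 2 falls in the neural lists, against 19 of 23 fibroblast and feeder markers, whose median lies at 1.69. Among the called genes, Sox9, Dcn and Col6a1 were tested only through their KO arrays.

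**Figure D4:**
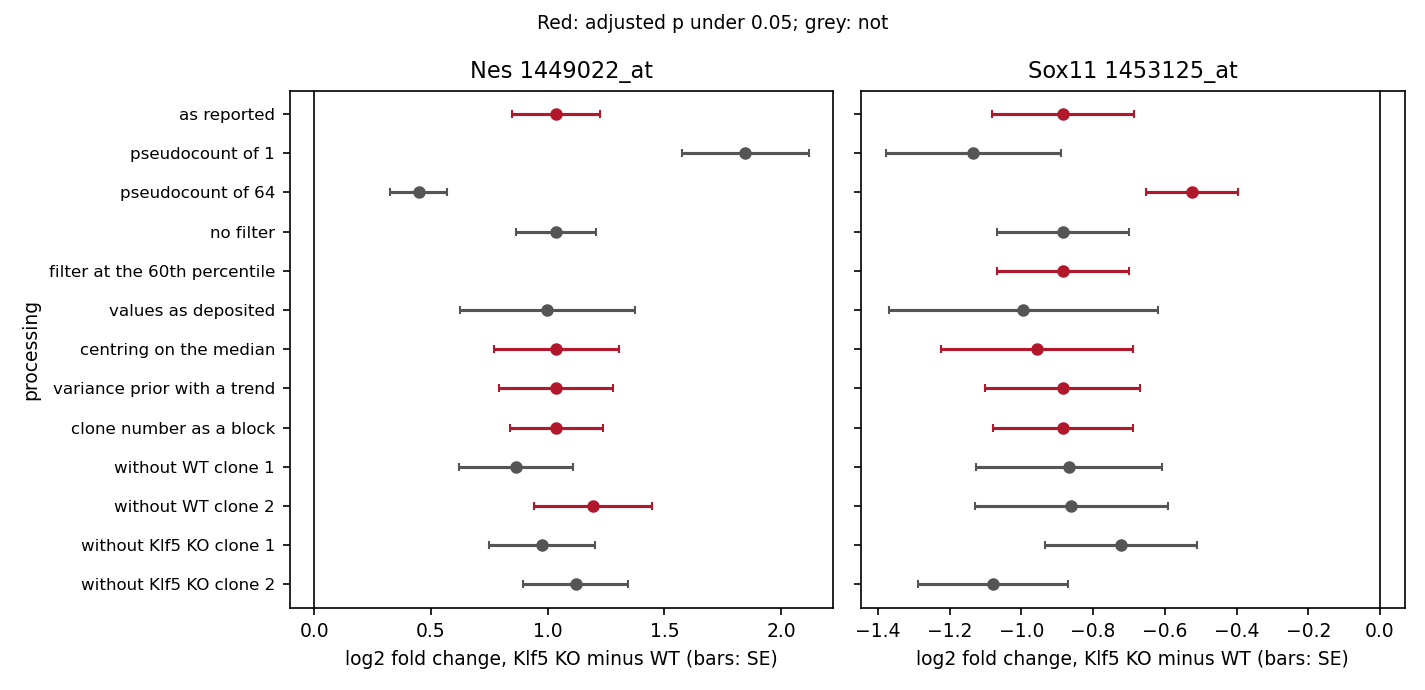
Log2 fold change of KO against WT (horizontal axes, bars are SE) of Nes 1449022_at and Sox11 1453125_at as reported and under each alternative processing (rows). In the rows for the values as deposited and for median centring, all probe sets share 1 variance. Both keep their direction in every row, Nes 1449022_at passes in 4 of 11 alternatives (the stricter filter removes it) and Sox11 1453125_at in 5 of 12, with none of the 4 leave-outs among those 5.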

How the data were processed

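Total RNA of 4 mouse ES cell clones (2 WT, 2 Klf5 KO), labelled with biotin per the labels' protocols, was read on 1 array each, and the deposited table holds linear intensities, 1 for each probe set of an array. The sources used here do not give the authors' summarisation or background correction. Arrays were grouped by title. Intensities were quantile normalized, 64 control probe sets were dropped, and log2(intensity + 16) was tested with limma 3.58.1 in R 4.3.3 (2 residual and 6.87 prior degrees of freedom), Benjamini-Hochberg adjusted over 27022 probe sets. The number of arrays limits the precision. Symbols come from the platform annotation (34958 rows with 1 symbol, 932 with several, 9160 with none), and all 31 member rows matched the RefSeq table by gene ID. A gene in a list is represented by its brightest tested probe set (one ending in _x_at only without another). At-least folds set the brighter group's mean against the dimmer group's values raised to the background level, on the log2(intensity + 16) scale. Members, lists and tests were chosen with earlier results of these data known. Every member probe set is named. Other genes are named where they passed (in lists with over 4 calls, the 2 largest each way), as the brightest of a list with 0 calls, as the nearest 3 to a called member, or where marked. The script was tested on simulated data with 200 changed probe sets, where it recovered 13% of log2 changes of 1 and 93.3% of log2 changes of 2. In the real data 996 probe sets were called. With fewer changed probe sets the adjusted threshold is stricter, so these shares do not measure the recovery in these data. A probe set that did not pass may still differ. The settings varied were the pseudocount (1, 64), the filter (none, 60th percentile), the normalization (none, median centring), a variance trend, a block on clone number, dropping each array, the mean of probe sets and other background levels.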

Additional observations from a re-analysis of the deposited data

How the results depend on the processing

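All 18 tested member probe sets were recomputed under each alternative in which they passed the filter. The 2 called member probe sets became 0 with a pseudocount of 1, with no filter and in the values as deposited, and 1 with the filter at the 60th percentile, which removes the Nes probe set. With an array left out they were 0 to 1. In the neural lists 7 genes were called (5 higher and 2 lower). Recounted over all tested list genes, the number was 3 with a pseudocount of 1, with no filter and in the values as deposited (2 higher and 1 lower in each), 12 with a pseudocount of 64 (7 and 5), 12 with a variance trend (8 and 4), 11 after median centring (5 and 6), 13 when the probe sets of each gene were averaged (9 and 4), and 3 to 4 with an array left out. The 996 called probe sets became 189 with a pseudocount of 1, 2060 with one of 64, 190 with no filter, 332 in the values as deposited, 2058 after median centring (640 higher and 1418 lower, against 659 and 337), 1955 with a variance trend, and 203 to 653 with an array left out. Without quantile normalization the median log2 fold change of all tested probe sets was -0.19, and after median centring -0.16, against -0.02. In each of these 2 fits all tested member probe sets had the same SE, 0.375 as deposited and 0.268 after median centring. Their p-values and counts therefore rest on 1 shared variance and not on each probe set's own spread. The 12 probe sets above background on all 4 arrays became 4 at the 99th percentile. The cause of these changes was not tested.

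Signs turned for members that were not called. Pax6 1437816_at had -0.01 with a pseudocount of 1 and -0.008 as deposited, and Tubb3 -0.043 as deposited and -0.005 after median centring. With an array left out, Pax6 1437816_at ran from -0.108 to 0.211, Pax6 1419271_at from -0.08 to 0.453, Nes 1418289_at from -0.156 to 0.067, Sox11 1429372_at from -0.611 to 0.092, Map2 1421328_at from -0.306 to 0.106 and Map2 1434194_at from -0.528 to 0.044. Leaving out an array leaves 1 in its group, assumed to vary like the other group. In the labels same-numbered clones share only a number, and whether they were handled together is not given. The correlation of their deviations was 0.0545. With clone number as a replicate block 2 member probe sets, 9 neural list genes and 1390 probe sets were called.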
